A study of Mus musculus with 35 samples.

Results

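Resident Kupffer cells (ResKCs) and monocyte-derived Kupffer cells (moKCs) of the steatotic mouse liver were compared across all genes by bulk RNA-seq. Their members were chosen by the sort gates that the labels and the study give: 6 samples of CLEC4F+TIM4+ cells (ResKCs) and 5 samples of CLEC4F+TIM4- cells (moKCs), together 11 of 35 samples. All 11 came from C57Bl/6J mice, which per the study's methods were males put on their diet at 5 weeks of age, and which ate a western diet (WD) for 24 weeks. Such feeding, with sugared water beside fatty chow, makes the liver store fat. Livers were perfused and digested with collagenase, and macrophages (macs) were purified by flow cytometry. The other 24 samples are ResKCs from mice on a standard diet (SD; 7 samples at 12 weeks and 6 at 24 weeks), ResKCs on the WD for 12 weeks (5 samples, by their titles; their diet field reads standard diet) and CLEC4F- macs on the WD for 24 weeks (6 samples). They share the fit that estimates the spread, and their levels are given side by side only; differences from them were not tested. The 11 libraries held 11749343 to 15163845 counts, at which 3 counts correspond to 0.198 to 0.255 CPM (counts in each 1000000 counts of a library) before the scaling that the CPM values below carry. Such floors cover counting error only. The study's supplement gives 5 or 6 mice for each population. Whether ResKC and moKC samples share mice is not stated in the sources used here, and p-values measure the spread between the samples. The comparison asks how TIM4- Kupffer cells, which the study traces to the bone marrow, differ in their transcripts from TIM4+ Kupffer cells. The gates do not mark origin as such. In the study's chimeras with shielded livers, donor marrow had given rise to a small part of the TIM4+ cells after 24 weeks. TIM4 is the gate, so *Timd4* checks the labels and is no finding.

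Kupffer cells are the macs of the liver sinusoids, where they take up bacteria, dying cells, old red blood cells and modified lipoproteins from the blood. Most are seeded before birth and renew themselves. When they are lost, monocytes from the bone marrow can settle in the niche, acquire CLEC4F early and TIM4 late, and are then called monocyte-derived.

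Both populations carried the transcripts of Kupffer cells. *Clec4f* stood at 11170.0, 12040.0 and 15580.0 CPM in the lowest, median and highest ResKC samples and at 11620.0, 8317, 10720.0, 7326 and 11240.0 CPM in moKCs 1 to 5. *Clec4f* encodes the C-type lectin of the gate, and its samples overlapped between the groups. The lowest, median and highest ResKC values of *Vsig4* were 2772, 3199 and 3441 CPM, beside 2852, 2747, 2750.0, 2984 and 3451 CPM in moKCs 1 to 5. The complement receptor gene *Vsig4* overlapped as well, and the median of the CLEC4F- macs was 33.2 CPM. *Cd5l*, which encodes a secreted scavenger protein, had medians of 10450.0 CPM in ResKCs and 7733 CPM in moKCs. The mac genes *Adgre1* (F4/80), *Csf1r* and *Mertk* had medians of 2891, 7925 and 704 CPM in ResKCs. In moKCs these medians were 2372, 6170.0 and 590.4 CPM. In *Timd4*, the lowest, median and highest ResKC samples had 547, 749 and 885 CPM, and moKCs 1 to 5 had 9.17, 16.9, 3.07, 30.3 and 2.85 CPM. Every ResKC sample lay above every moKC sample in *Timd4*, as the gate sets. The monocyte marker *Ly6c2* had at most 0.537 CPM in a ResKC sample and 0.712 CPM in a moKC sample. Among 20 genes shared by Kupffer cells, all of which passed the filter on low counts, 1 differed between the groups at an adjusted p under 0.05, the lectin gene *Cd207*. At an unadjusted p under 0.05, 7 were higher in ResKCs, DESeq2 gave 0 in ResKCs and 1 in moKCs, and limma-voom gave 2 and 1. Over all 13421 genes tested, 2135 had an unadjusted p under 0.05, in both directions together. Unadjusted counts of the lists here and below are to be read beside that share. The fit without moKC 1 gave 3 in ResKCs and 1 in moKCs. The median log2 fold change of this list was 0.24, beside -0.02 over all genes.

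Transcripts of other liver cells were found in both groups. The 25 hepatocyte genes summed to 1851 to 5822 CPM in ResKCs and to 5099, 3882, 3030.0, 3150.0 and 2449 CPM in moKCs 1 to 5, with *Alb* the most abundant. None of the 25 differed at an adjusted p under 0.05 with edgeR's quasi-likelihood test, at an unadjusted p under 0.05, or with DESeq2 or limma-voom. The 16 sinusoidal endothelial genes, led by *Stab2*, summed to 665 to 1656 CPM in ResKCs and to 2953, 2118, 781, 1032 and 1209 CPM in moKCs. None of the 16 passed. Before adjustment, at p under 0.05, 0 and 5 counted as higher in ResKCs and in moKCs, and at an adjusted p the counts were 0 and 0 with DESeq2 and 0 and 0 with limma-voom. The median log2 fold change of the endothelial list was -0.77, and -0.29 without moKC 1. Genes of cholangiocytes, led by *Krt8*, summed to 15.7 to 34.4 CPM in ResKCs and 24.6, 18.7, 29.97, 15.6 and 20.7 CPM in moKCs. The T and NK cell genes, led by *Ccl5*, summed to 12.4 to 15.8 CPM in ResKCs and 12.6, 18.6, 33.05, 13.7 and 14.6 CPM in moKCs, and the dendritic cell genes, led by *Dpp4*, to 70.3 to 126 CPM and 181, 166, 94.1, 88.5 and 103 CPM. The erythroid genes, led by *Epor*, summed to 35.2 to 137 CPM and 76.9, 30.5, 86.5, 41.8 and 40.7 CPM. No tested gene of these 4 lists passed (5 of 9, 9 of 17, 10 of 11 and 7 of 10 listed genes were tested). At an unadjusted p under 0.05 the T and NK cell list had 1 gene higher in each group and the erythroid list had 1 higher in ResKCs. DESeq2 gave 0 in all 4 lists, and limma-voom gave 1 T and NK cell gene higher in moKCs. The part of other cells in the differences described here was not tested.

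Over the genes that were higher in ResKCs, 2 of the 11 libraries stood apart from the rest of their groups. Over 66 genes that were more than 2-fold higher in ResKCs at an adjusted p under 0.05, with a mean of at least 5 CPM, ResKC 4 was the lowest of the 6 samples at 45, with a median log2 difference of -0.71 from the median of the rest of its group. It was the highest ResKC sample at 23 of 53 such genes that were higher in moKCs. moKC 1 was the highest of its 5 samples at 34 of the 66 genes, with a median difference of 0.63. Its median correlation with the other moKC samples over genes was 0.953, beside 0.968 to 0.970 for the other moKC samples, while ResKC 4, at 0.964, lay within the 0.960 to 0.968 of the ResKCs. Over the 53 genes the libraries farthest from their groups were ResKC 4 (0.42) and moKC 3 (-0.40), and moKC 1 was at -0.12. The 20 immediate-early and heat-shock genes, which respond within minutes to handling and stress, summed to 15870.0, 3909, 5352, 10500.0 and 5974 CPM in moKCs 1 to 5 and to 3005 to 8796 CPM in ResKCs. None of the 20 passed the test. At an unadjusted p under 0.05, 0 and 7 counted as higher in ResKCs and in moKCs, and at an adjusted p the counts were 0 and 0 with DESeq2 and 0 and 0 with limma-voom. Their median log2 fold change was -0.95, and -0.46 without moKC 1. The neutrophil genes summed to 584, 81.7, 84.8, 106 and 87.7 CPM in moKCs and to 78.3 to 104 CPM in ResKCs, with *Csf3r* the most abundant by median and *Ly6g* at 0 in all 11 samples. In moKC 1 most of this sum was *Mmp9*, at 510.4 CPM.

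**Figure D1:**
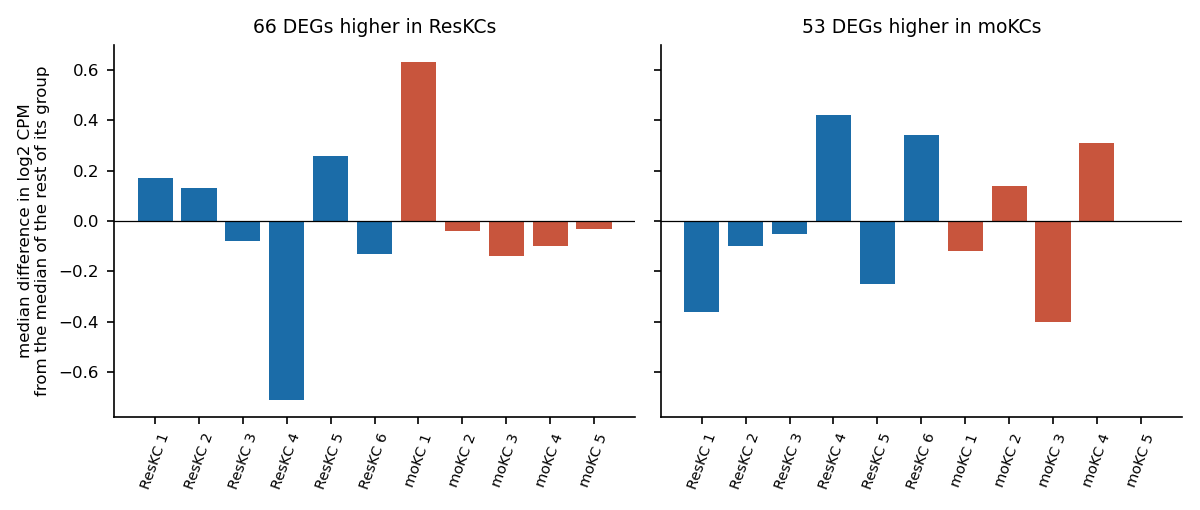
Bars give, for each of the 11 libraries, the median difference in log2 CPM from the median of the rest of its group, over 66 genes higher in ResKCs (left) and 53 genes higher in moKCs (right). ResKC 4 (-0.71) and moKC 1 (0.63) lie farthest from 0 in the left panel.

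Across the transcriptome, few genes differed between ResKCs and moKCs at an adjusted p under 0.05, and more of these were higher in ResKCs. Such a count depends on the number of samples, and the genes outside it are not shown to be alike. At an unadjusted p under 0.05 there were 2135 of the 13421 genes. The resident cells had more transcripts of the scavenger receptors *Marco*, *Cd163* and *Colec12*, the complement gene *C2*, the BMP receptor *Bmpr1a* and 6 of 25 genes of iron and heme recycling. The monocyte-derived cells had more of the lectin *Cd207*, the chemokine receptors *Ccr2* and *Cx3cr1*, and 8 of 16 tested genes of antigen presentation on MHC class II. A differentially expressed gene (DEG) was a gene that changed more than 2-fold (a log2 fold change beyond 1 in either direction) and had an adjusted p under 0.05 in edgeR's quasi-likelihood test. Of 13421 genes tested, 114 DEGs were higher in ResKCs (0.849%) and 72 were higher in moKCs (0.536%). Without a limit on the fold change, 268 genes were higher in ResKCs (2.00%) and 133 in moKCs (0.991%) at an adjusted p under 0.05, which is called passing the test from here on. The samples of both groups did not overlap at 67 of the 114 DEGs and at 33 of the 72, beside 431 of all 13421 genes tested. In 40 of the 114 the mean of the moKCs was under 1 CPM. Without moKC 1 the DEGs were 159 and 79. Of the 186 DEGs in both directions, 161 were kept, 25 were lost and 77 were gained without moKC 1, and no direction changed. Per the file headers the libraries carry names of 2 kinds, called naming schemes here, whose meaning is not given in the sources used here. The first holds ResKCs 1 to 3 and moKCs 1 and 2, the second holds ResKCs 4 to 6 and moKCs 3 to 5, and for the main genes the changes within each are given beside the pooled ones. In these names moKC 2 shares its number with a ResKC sample on the WD for 12 weeks. moKC 2 had 16.9 CPM of *Timd4* and 64.3 CPM of *Cd163*, and the lowest of those 12-week samples had 861 and 1107 CPM, so the 2 libraries were not exchanged.

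**Figure D2:**
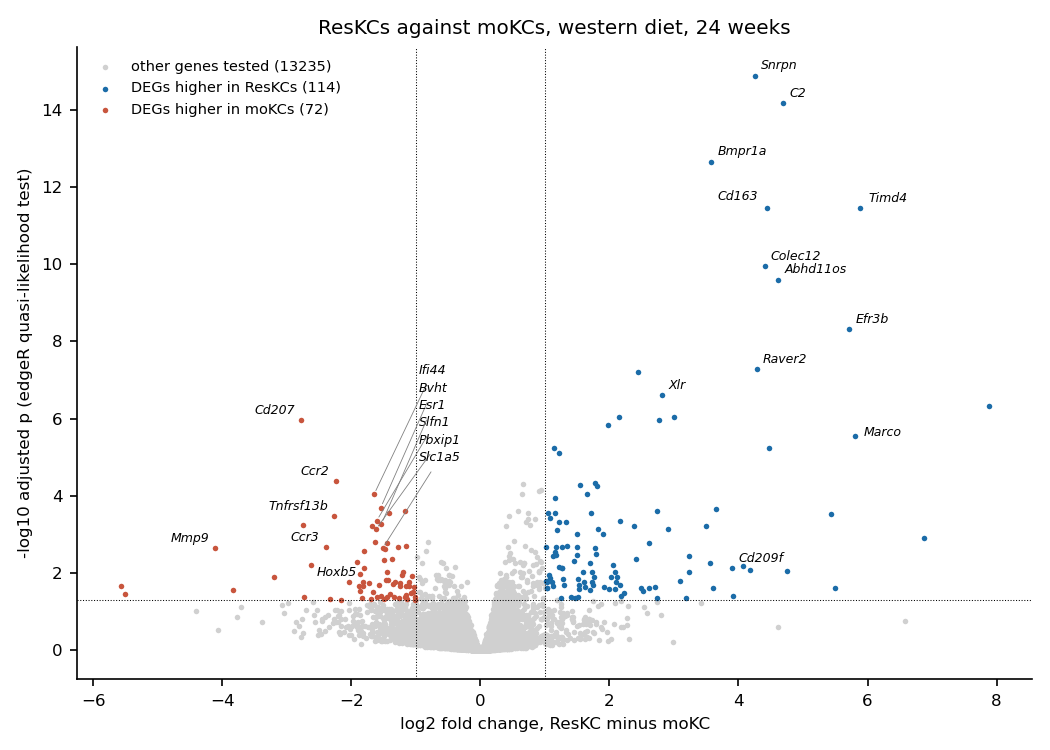
Each point is a gene, with the log2 fold change (ResKC minus moKC) on the horizontal axis and the negative log10 of the adjusted p on the vertical axis. Coloured points are the 114 DEGs higher in ResKCs and the 72 higher in moKCs, dotted lines mark the limits, and the named genes have the largest changes among DEGs with at least 5 CPM whose groups do not overlap.

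Scavenger receptors bind modified lipoproteins, bacterial surfaces and hemoglobin complexes, and 4 of the 16 tested (18 listed) were higher in ResKCs while none was higher in moKCs. DESeq2 and limma-voom also gave 0 higher in moKCs, and 2 were higher there at an unadjusted p under 0.05. The list median was 0.26. In *Marco*, the lowest, median and highest ResKC samples had 462, 1177 and 2116 CPM, and moKCs 1 to 5 had 2.65, 14.6, 24.4, 51.4 and 18.6 CPM. *Marco* (chromosome 1, 120474538 to 120505024 in GRCm38.p6) encodes a receptor for bacteria and particles, and its lowest ResKC sample lay well above its highest moKC sample. The fit gave a log2 fold change of 5.80 (SE 0.73, adjusted p = 2.83e-06), where SE is the standard error, in edgeR's quasi-likelihood test, with log2 changes of 7.21 within the first naming scheme and 5.27 within the second. The median level of *Marco* was 1885 CPM in SD ResKCs at 24 weeks and 9.45 CPM in CLEC4F- macs. *Colec12* stood at 65.7, 191 and 306 CPM in the lowest, median and highest ResKC samples and at 13.8, 10.96, 2.40, 8.43 and 7.46 CPM in moKCs 1 to 5. *Colec12* encodes a scavenger receptor with a collectin domain, and its groups did not overlap. On the log2 scale the change was 4.40 (SE 0.35, adjusted p = 1.11e-10), with log2 changes of 3.89 within the first naming scheme and 4.91 within the second, and its median was 97.4 CPM in SD ResKCs at 24 weeks and 5.07 CPM in CLEC4F- macs. For *Cd163* the ResKC samples had a lowest, median and highest value of 879.9, 1616 and 2007 CPM, beside 113, 64.3, 33.5, 94.5 and 38.3 CPM in moKCs 1 to 5. The hemoglobin-haptoglobin receptor gene *Cd163* parted the groups in every sample too, with log2 changes of 4.30 within the first naming scheme and 4.47 within the second. *Cd68* stood at 1480.0, 1599 and 1617 CPM in the lowest, median and highest ResKC samples and at 1150.0, 1098, 1232, 1269 and 1278 CPM in moKCs 1 to 5. *Cd68*, which encodes a lysosomal glycoprotein of macs, was higher in every ResKC sample, but by a log2 fold change of only 0.38 (SE 0.08, adjusted p = 0.00502). In bulk RNA, fewer cells that express a gene and less RNA per cell cannot be told apart.

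Among genes for the uptake of dying cells, only the gene of the gate differed. Of 13 tested genes (19 listed), 1 passed, *Timd4* itself, and 0 were higher in moKCs with edgeR, DESeq2, limma-voom or at an unadjusted p under 0.05. The median of the list was -0.09, beside -0.02 over all genes. *Mertk*, the receptor that binds dying cells through bridging proteins, ranged from 622 to 803 CPM in ResKCs and from 562 to 668 CPM in moKCs, and these ranges overlapped.

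**Figure D3:**
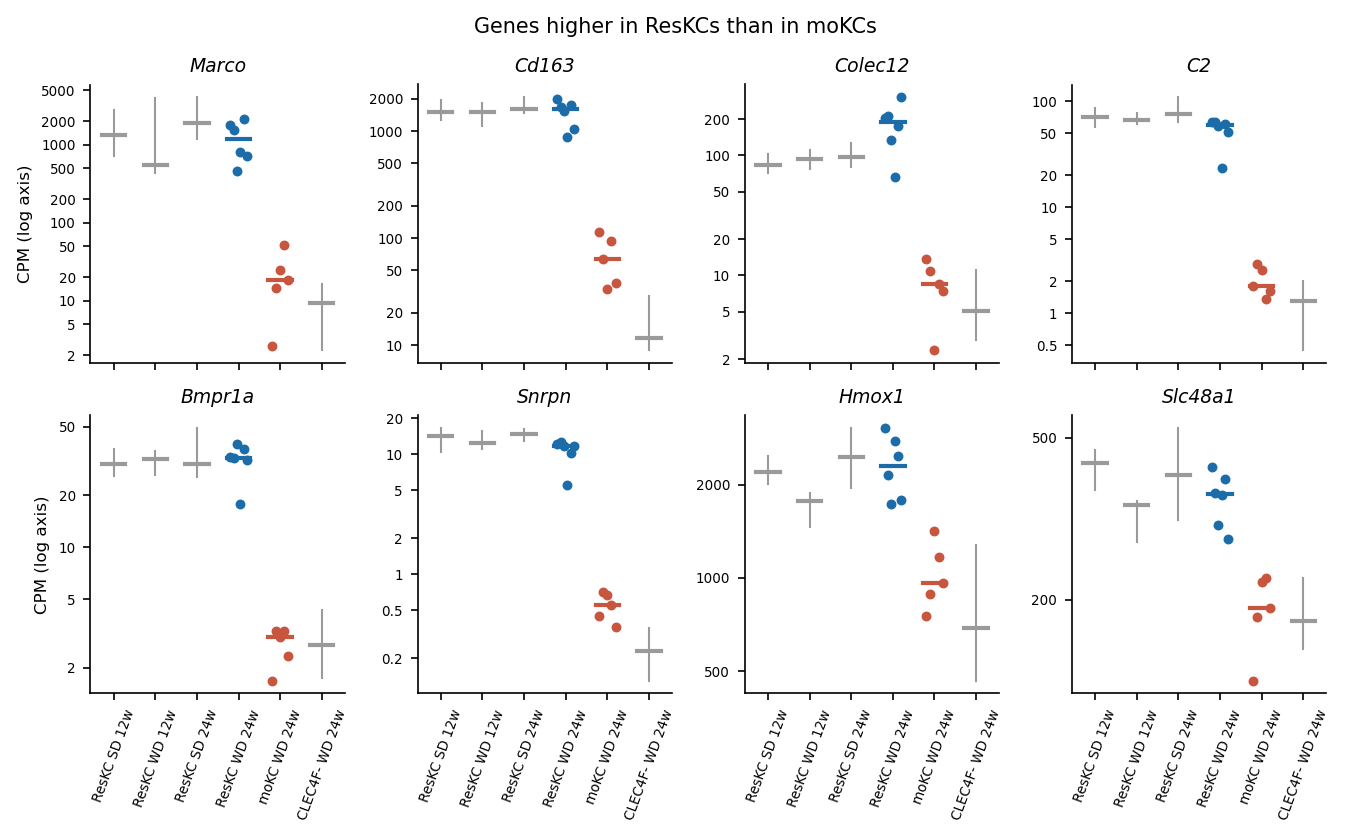
Each panel plots CPM on a log axis for 8 genes in the 6 groups; points are the ResKC and moKC samples on the WD at 24 weeks, thick lines are group medians, and grey lines span the lowest to the highest sample of the other 4 groups. In *Marco* the ResKC samples start at 462 CPM and the moKC samples end at 51.4 CPM.

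Complement genes, whose products mark particles for uptake and form pores in membranes, included *C2*, which was higher in ResKCs, and none of 31 tested genes (32 listed) was higher in moKCs. With DESeq2 and limma-voom the counts higher in moKCs were 0 and 0, with 1 at an unadjusted p under 0.05. Higher in ResKCs were 2 with edgeR, 4 with DESeq2, 5 with limma-voom and 8 at an unadjusted p under 0.05. The fit without moKC 1 gave 6 in ResKCs and 1 in moKCs. The members of the list had a median log2 fold change of 0.10. This median was 0.21 without moKC 1 and 0.17 without ResKC 4. In *C2*, the lowest, median and highest ResKC samples had 23.4, 59.5 and 63.3 CPM, and moKCs 1 to 5 had 1.81, 2.92, 2.55, 1.35 and 1.61 CPM. *C2* (chromosome 17, 34862602 to 34882100 in GRCm38.p6) encodes the protease of the classical and lectin pathways. No moKC sample came near the lowest ResKC sample, which was ResKC 4. This amounted to a log2 fold change of 4.69 (SE 0.26, adjusted p = 6.59e-15) in edgeR's quasi-likelihood test, with log2 changes of 4.70 within the first naming scheme and 4.61 within the second, and the median was 75.5 CPM in SD ResKCs at 24 weeks and 1.30 CPM in CLEC4F- macs. ResKC samples of *C4b* had a lowest, median and highest value of 774, 1163 and 1358 CPM, beside 1512, 214, 210.0, 165 and 279 CPM in moKCs 1 to 5. In *C4b*, which encodes the partner of C2, moKC 1 was above every ResKC sample and the other moKC samples were below all of them. The estimated log2 change was 1.25 (SE 0.38, adjusted p = 0.0621) and did not pass, and without moKC 1 it was 2.38 (adjusted p = 3.86e-08). *C6*, a gene of the pore, had 1268 CPM in moKC 1 and 276, 392, 253 and 452 CPM in moKCs 2 to 5, beside 867 to 1718 CPM in ResKCs. The fitted change of *C6* was 1.33 (SE 0.46, adjusted p = 0.111) and did not pass, while without moKC 1 it was 1.96 (adjusted p = 0.011) and passed.

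Kupffer cells break down the heme of old red blood cells and return the iron to the blood. Of the 25 genes for this work, all tested, 6 were higher in ResKCs and none in moKCs. DESeq2 gave 6 and 0, limma-voom gave 6 and 1, and 1 was higher in moKCs at an unadjusted p under 0.05. The list median was 0.19. In *Hmox1*, the lowest, median and highest ResKC samples had 1726, 2305 and 3048 CPM, and moKCs 1 to 5 had 755, 886, 1421, 1166 and 962 CPM. *Hmox1* encodes heme oxygenase 1, which opens the heme ring, and every ResKC sample was higher than every moKC sample. In log2 units the difference was 1.16 (SE 0.19, adjusted p = 0.000272) in edgeR's quasi-likelihood test, with log2 changes of 1.49 within the first naming scheme and 0.98 within the second. *Slc48a1* stood at 282, 364 and 424 CPM in the lowest, median and highest ResKC samples and at 126, 181, 221, 226 and 191 CPM in moKCs 1 to 5. *Slc48a1* encodes the transporter that moves heme out of the phagolysosome, and its groups did not overlap. Fitted over all samples, the log2 change was 0.91 (SE 0.14, adjusted p = 7.46e-05), with log2 changes of 1.24 within the first naming scheme and 0.71 within the second. The lowest, median and highest ResKC values of *Steap3* were 11.3, 13.7 and 18.1 CPM, beside 9.30, 10.2, 10.1, 7.95 and 7.61 CPM in moKCs 1 to 5. In *Steap3*, a ferrireductase gene, the lowest ResKC sample was above the highest moKC sample, with a log2 fold change of 0.67 (SE 0.15, adjusted p = 0.00972). *Cd163* passed as well. *Ncoa4*, whose product delivers ferritin for breakdown, and *Slc11a1*, which encodes a metal transporter of the phagosome, were chosen after their values were seen. Their log2 fold changes were 0.48 (SE 0.11, adjusted p = 0.0102) and 0.28 (SE 0.07, adjusted p = 0.03). *Slc11a1* passed in 4 of the 11 fits that each left out 1 sample (adjusted p up to 0.0852). The ferroportin gene *Slc40a1* had the highest CPM of the list, with medians of 8277 CPM in ResKCs and 5656 CPM in moKCs.

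Receptors and mediators of bone morphogenetic proteins (BMPs), signals that liver endothelial and stellate cells send to Kupffer cells, held 1 gene that passed, *Bmpr1a*, among 25 tested genes (26 listed). None was higher in moKCs with edgeR, DESeq2 or limma-voom, and 3 were at an unadjusted p under 0.05. With limma-voom 2 were higher in ResKCs. The fit without moKC 1 gave 2 in ResKCs and 1 in moKCs. The median of the list was -0.20, and -0.07 without moKC 1. In *Bmpr1a*, the lowest, median and highest ResKC samples had 17.9, 33.2 and 39.98 CPM, and moKCs 1 to 5 had 1.68, 3.27, 3.00, 3.26 and 2.34 CPM. *Bmpr1a* (chromosome 14, 34411061 to 34503336 in GRCm38.p6) encodes a type 1 BMP receptor. All ResKC samples were above all moKC samples, with ResKC 4 the lowest of its group. Its fitted log2 change was 3.58 (SE 0.23, adjusted p = 2.21e-13) in edgeR's quasi-likelihood test, with log2 changes of 3.84 within the first naming scheme and 3.34 within the second, and the median was 30.3 CPM in SD ResKCs at 24 weeks and 2.70 CPM in CLEC4F- macs.

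Imprinted genes, which are transcribed from 1 parental allele, are a mixed list of which 15 of 38 passed the filter on low counts. *Snrpn* and *Mcts2* were higher in ResKCs, and none was higher in moKCs with edgeR, DESeq2 or limma-voom (1 at an unadjusted p under 0.05). Its members had a median log2 fold change of 0.06. *Snrpn* stood at 5.57, 11.7 and 12.7 CPM in the lowest, median and highest ResKC samples and at 0.452, 0.712, 0.674, 0.557 and 0.366 CPM in moKCs 1 to 5. *Snrpn* (chromosome 7, 59982495 to 60450177 in GRCm38.p6) encodes a small nuclear ribonucleoprotein and shares its transcripts with *Snurf*, so that its counts are uncertain. No moKC sample reached 1 CPM. The change on the log2 scale came to 4.26 (SE 0.22, adjusted p = 1.31e-15), with log2 changes of 4.37 within the first naming scheme and 4.09 within the second, and the median was 14.7 CPM in SD ResKCs at 24 weeks and 0.231 CPM in CLEC4F- macs. *Mcts2* was chosen after its values were seen. It is a retrogene close in sequence to its parent gene, and its log2 fold change was 2.77 (SE 0.33, adjusted p = 1.07e-06). Allelic expression was not tested.

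Further genes with large changes in ResKCs belong to none of the lists. In *Efr3b*, the lowest, median and highest ResKC samples had 7.54, 17.1 and 48.5 CPM, and moKCs 1 to 5 had 0.839, 0.356, 0.225, 0 and 0.585 CPM. *Efr3b* encodes a protein that anchors a lipid kinase at the plasma membrane. Its ResKC samples differed among themselves, yet all lay above every moKC sample, with a log2 fold change of 5.71 (SE 0.53, adjusted p = 4.73e-09) in edgeR's quasi-likelihood test. *Raver2* stood at 9.03, 18.4 and 23.7 CPM in the lowest, median and highest ResKC samples and at 2.52, 0.997, 0, 0.239 and 0.585 CPM in moKCs 1 to 5. *Raver2* encodes an RNA-binding protein, and moKC 1 had the highest moKC value. Between the groups the log2 change was 4.28 (SE 0.44, adjusted p = 5.11e-08), and 5.22 (adjusted p = 1.23e-09) without moKC 1. For *Xlr* the ResKC samples had a lowest, median and highest value of 10.9, 19.96 and 21.9 CPM, beside 1.55, 3.27, 1.42, 5.17 and 1.83 CPM in moKCs 1 to 5. *Xlr* is a lymphoid gene of the X chromosome with near-identical relatives, which makes its counts uncertain, and its groups did not overlap. *Abhd11os*, a non-coding transcript opposite to *Abhd11*, had at most 0.452 CPM in a moKC sample and at least 4.14 CPM in a ResKC sample. The fit gave a log2 fold change of 4.62 (SE 0.38, adjusted p = 2.51e-10), and the strand of the counts is not given in the sources used here.

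C-type lectins, receptors that bind sugars on microbes and cells, changed in both directions. Of 23 tested genes (27 listed), 4 were higher in moKCs and 2 in ResKCs, and the list median was -0.22. In *Cd207*, the lowest, median and highest ResKC samples had 82.6, 127 and 239 CPM, and moKCs 1 to 5 had 1169, 899, 599.6, 1588 and 709.9 CPM. *Cd207* (chromosome 6, 83671207 to 83677857 in GRCm38.p6) encodes langerin, and each moKC sample had more than any ResKC sample. On the log2 scale the change was -2.77 (SE 0.33, adjusted p = 1.07e-06) in edgeR's quasi-likelihood test, with log2 changes of -3.38 within the first naming scheme and -2.34 within the second. Its median was 634 CPM in SD ResKCs at 24 weeks and 412 CPM in CLEC4F- macs. *Clec5a* stood at 2.18, 3.58 and 7.33 CPM in the lowest, median and highest ResKC samples and at 5.49, 10.6, 8.99, 34.9 and 13.5 CPM in moKCs 1 to 5. *Clec5a* encodes a receptor of myeloid cells that signals through DAP12. moKC 1 overlapped the ResKC samples and moKC 4 was the highest. This amounted to a log2 fold change of -1.87 (SE 0.43, adjusted p = 0.0106), and -1.26 (adjusted p = 0.11) without moKC 4. ResKC samples of *Clec4b1* had a lowest, median and highest value of 15.7, 27.3 and 38.9 CPM, beside 26.98, 76.2, 56.6, 72.6 and 71.3 CPM in moKCs 1 to 5. In *Clec4b1*, a lectin gene of dendritic cells and monocytes, moKC 1 lay among the ResKC samples and the other moKC samples above all of them. The estimated log2 change was -1.15 (SE 0.22, adjusted p = 0.00201). *Clec4a2*, an inhibitory lectin gene chosen after its values were seen, had a log2 fold change of -0.67 (SE 0.16, adjusted p = 0.0143). It passed in 9 of the 11 fits that each left out 1 sample, failing without moKC 4 (-0.61, adjusted p = 0.0551) and moKC 5 (-0.60, adjusted p = 0.0577).

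The lectins that were higher in ResKCs were *Cd209f* and *Cd209g*, neighbours in a family with similar sequences, so that their counts are uncertain. In *Cd209f*, the lowest, median and highest ResKC samples had 2.39, 8.74 and 18.6 CPM, and moKCs 1 to 5 had 2.19, 0.285, 0.150, 0 and 0.220 CPM. The ResKC samples spread widely, and moKC 1 came just below the lowest of them. The log2 fold change of *Cd209f* was 3.90 (SE 0.86, adjusted p = 0.00744) in edgeR's quasi-likelihood test, with log2 changes of 1.85 within the first naming scheme and 6.65 within the second, and 5.69 (adjusted p = 0.00105) without moKC 1. *Cd209g* was chosen after its values were seen and had at most 2.33 CPM in any of the 11 samples. In log2 units the difference was 3.91 (SE 1.08, adjusted p = 0.0394), and it passed in 5 of the 11 fits that each left out 1 sample (adjusted p up to 0.105). With limma-voom none of the lectins was higher in ResKCs, and 2 were with DESeq2.

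Genes of circulating monocytes were in part higher in moKCs. Of 21 tested genes (22 listed), *Ccr2*, *Cx3cr1* and *Ms4a4c* were higher in moKCs and *Fn1* was higher in ResKCs, with a list median of -0.33. Without moKC 1 the counts in ResKCs and in moKCs were 1 and 4. Without ResKC 4, 0 were higher in ResKCs and 3 in moKCs. In *Ccr2*, the lowest, median and highest ResKC samples had 4.65, 6.33 and 6.62 CPM, and moKCs 1 to 5 had 12.1, 36.7, 24.9, 31.7 and 38.1 CPM. *Ccr2* (chromosome 9, 124101918 to 124109140 in GRCm38.p6) encodes the chemokine receptor by which monocytes leave the bone marrow, and the lowest moKC sample, moKC 1, was above every ResKC sample. Fitted over all samples, the log2 change was -2.25 (SE 0.33, adjusted p = 4.18e-05) in edgeR's quasi-likelihood test, with log2 changes of -1.99 within the first naming scheme and -2.41 within the second. *Cx3cr1* stood at 3.77, 6.02 and 26.02 CPM in the lowest, median and highest ResKC samples and at 11.2, 87.6, 49.2, 124 and 88.8 CPM in moKCs 1 to 5. *Cx3cr1* encodes the fractalkine receptor. moKC 1 fell among the ResKC samples, and the other moKC samples were higher than all of them. Its fitted log2 change was -2.74 (SE 0.48, adjusted p = 0.000579), with log2 changes of -3.12 within the first naming scheme and -2.46 within the second, and the median was 1.88 CPM in SD ResKCs at 24 weeks and 586 CPM in CLEC4F- macs. The lowest, median and highest ResKC values of *Fn1* were 94.96, 176 and 686 CPM, beside 101, 61.5, 67.5, 56.9 and 57.6 CPM in moKCs 1 to 5. In *Fn1*, which encodes fibronectin, ResKC 4 was the highest, and the ranges overlapped. The change on the log2 scale came to 1.91 (SE 0.49, adjusted p = 0.0225), and 1.33 (adjusted p = 0.095) without ResKC 4. *Fn1* passed in 6 of the 11 fits that each left out 1 sample (adjusted p up to 0.095). Its moKC median was 61.5 CPM, above the medians of the other ResKC groups. These were 23.7 and 41.1 CPM on the SD at 12 and 24 weeks and 53.95 CPM on the WD at 12 weeks. *Ms4a4c*, a membrane protein gene of monocytes, had a log2 fold change of -0.90 (SE 0.25, adjusted p = 0.0373) and passed in 4 of the 11 fits that each left out 1 sample (adjusted p up to 0.105).

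The receptor genes *Tnfrsf13b* and *Ccr3*, which are in none of the lists, were higher in moKCs. *Tnfrsf13b* stood at 0.726, 3.07 and 5.64 CPM in the lowest, median and highest ResKC samples and at 9.43, 16.02, 13.1, 18.8 and 16.2 CPM in moKCs 1 to 5. *Tnfrsf13b* encodes TACI, a receptor for the B cell factors BAFF and APRIL, and its groups did not overlap. Between the groups the log2 change was -2.27 (SE 0.38, adjusted p = 0.000332) in edgeR's quasi-likelihood test, with log2 changes of -2.49 within the first naming scheme and -2.07 within the second, and the median was 2.13 CPM in SD ResKCs at 24 weeks and 42.7 CPM in CLEC4F- macs. For *Ccr3* the ResKC samples had a lowest, median and highest value of 1.40, 2.64 and 5.29 CPM, beside 38.4, 10.2, 11.9, 6.36 and 15.7 CPM in moKCs 1 to 5. *Ccr3* encodes an eotaxin receptor, and moKC 1 had the highest value. The fit gave a log2 fold change of -2.40 (SE 0.47, adjusted p = 0.00216), and -1.81 (adjusted p = 0.0152) without moKC 1.

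Presentation of antigens on MHC class II was the list with the most members higher in moKCs. Of 16 tested genes (17 listed), 8 were higher in moKCs and 1 in ResKCs, with a list median of -0.56, and DESeq2 and limma-voom gave the same 8 and 1 as counts. Without moKC 1, and without ResKC 4, 8 were higher in moKCs and 0 in ResKCs. In *H2-Ab1*, the lowest, median and highest ResKC samples had 1279, 1926 and 3231 CPM, and moKCs 1 to 5 had 5495, 6395, 4636, 7392 and 5078 CPM. *H2-Ab1* (chromosome 17, 34263227 to 34269418 in GRCm38.p6) encodes the beta chain of the class II molecule I-A, and the groups did not overlap. On the log2 scale the change was -1.45 (SE 0.28, adjusted p = 0.00161) in edgeR's quasi-likelihood test, with log2 changes of -1.85 within the first naming scheme and -1.14 within the second. *H2-Eb1* stood at 583, 920.2 and 1442 CPM in the lowest, median and highest ResKC samples and at 2479, 2962, 2152, 3840.0 and 2371 CPM in moKCs 1 to 5. *H2-Eb1*, the beta chain gene of I-E, parted the groups as well, with a log2 fold change of -1.47 (SE 0.29, adjusted p = 0.00231). ResKC samples of *Ciita* had a lowest, median and highest value of 41.4, 64.5 and 80.00 CPM, beside 119, 159.7, 145, 156 and 135 CPM in moKCs 1 to 5. *Ciita* encodes the coactivator that the class II genes need, and each moKC sample was above each ResKC sample. This amounted to a log2 fold change of -1.20 (SE 0.27, adjusted p = 0.00937). *H2-Aa*, the alpha chain gene of I-A, had 1001, 1406 and 2145 CPM in the lowest, median and highest ResKC samples and 3294, 3863, 3035, 4933 and 3297 CPM in moKCs. The estimated log2 change was -1.28 (SE 0.25, adjusted p = 0.00206).

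The other members were chosen after their values were seen. *Cd74*, which encodes the invariant chain, *H2-DMb1* and *H2-DMa*, which encode the peptide exchanger, and the costimulator gene *Cd40* had log2 fold changes of -0.98, -0.91, -0.55 and -0.62 (adjusted p = 0.00373, 0.00563, 0.0241 and 0.0155, edgeR). *H2-DMa* passed in 7 of the 11 fits that each left out 1 sample, failing without ResKC 1 (-0.50, adjusted p = 0.0779), ResKC 2 (-0.54, adjusted p = 0.0535), moKC 4 (-0.50, adjusted p = 0.0854) and moKC 5 (-0.56, adjusted p = 0.0522). The member that was higher in ResKCs was *Ifi30*, a lysosomal thiol reductase gene, with 0.41 (SE 0.12, adjusted p = 0.0436), and it passed in 3 of the 11 fits that each left out 1 sample (adjusted p up to 0.145). The median of *H2-Ab1* was 4707 CPM in SD ResKCs at 24 weeks and 9001 CPM in CLEC4F- macs, and that of *Ciita* was 61.1 CPM in SD ResKCs at 24 weeks and 212 CPM in CLEC4F- macs.

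The promoters of 2 of these genes are shown because they hold the Y box, a CCAAT element of class II promoters that the factor NF-Y binds. The sequences are the 250 bases before the start site from RefSeq (GRCm38.p6), 5' to 3' on the strand of the gene, with the letters CTGATTGG in capitals. They are *H2-Aa*, chr17:34287824-34288073 (- strand), with the letters starting at -51 from the start site, and *H2-Eb1*, chr17:34305617-34305866 (+ strand), at -62.
H2-Aa: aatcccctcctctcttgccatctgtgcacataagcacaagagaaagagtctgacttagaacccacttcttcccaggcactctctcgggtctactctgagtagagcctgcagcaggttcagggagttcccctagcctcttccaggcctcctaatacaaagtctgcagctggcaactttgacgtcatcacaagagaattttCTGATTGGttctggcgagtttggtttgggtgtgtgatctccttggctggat
H2-Eb1: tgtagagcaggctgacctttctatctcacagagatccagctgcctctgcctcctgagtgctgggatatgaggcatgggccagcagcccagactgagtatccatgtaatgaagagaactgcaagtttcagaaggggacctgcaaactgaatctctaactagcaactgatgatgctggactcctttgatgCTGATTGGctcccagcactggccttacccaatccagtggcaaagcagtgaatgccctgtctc
CTGATTGG was searched on both strands in 32851 RefSeq promoters of 300 bases (250 before to 50 after the start), and 1346 of them (4.1%) held it. Of the 8 class II genes higher in moKCs, 4 had a promoter in the table and 2 of these, *H2-Aa* and *H2-Eb1*, held the letters. A match is a description of the sequence only.

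**Figure D4:**
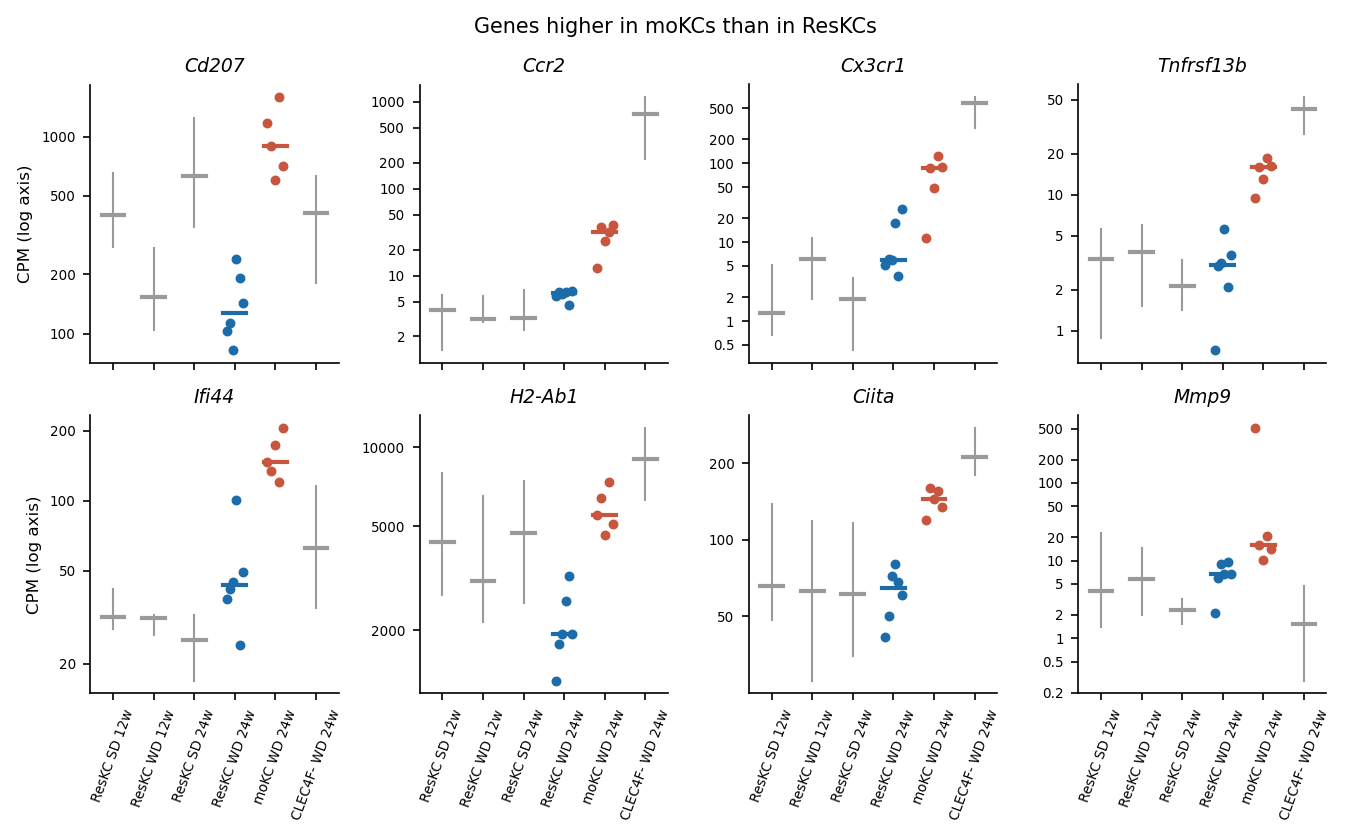
Each panel plots CPM on a log axis for 8 genes in the 6 groups; points are the ResKC and moKC samples on the WD at 24 weeks, thick lines are group medians, and grey lines span the lowest to the highest sample of the other 4 groups. In *Mmp9* moKC 1, at 510.4 CPM, lies far above the other moKC samples, and in *Cd207* the moKC samples start at 599.6 CPM.

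Among interferon-stimulated genes, which limit viruses, 5 of 45 tested (46 listed) were higher in moKCs and none in ResKCs. DESeq2 gave 6 and limma-voom 5 in moKCs, and both tools and the unadjusted p under 0.05 gave 0 in ResKCs. The list median was -0.21. In *Ifi44*, the lowest, median and highest ResKC samples had 24.02, 43.5 and 101 CPM, and moKCs 1 to 5 had 147, 135, 174, 120.1 and 205 CPM. *Ifi44* encodes a cytoplasmic protein induced by interferon, and ResKC 4 was the highest ResKC sample, below every moKC sample. In log2 units the difference was -1.65 (SE 0.25, adjusted p = 9.1e-05) in edgeR's quasi-likelihood test, with log2 changes of -1.77 within the first naming scheme and -1.52 within the second. *Isg15* stood at 24.4, 27.03 and 30.7 CPM in the lowest, median and highest ResKC samples and at 43.9, 41.1, 43.7, 36.4 and 43.5 CPM in moKCs 1 to 5. *Isg15* encodes a ubiquitin-like protein, and its groups did not overlap. Fitted over all samples, the log2 change was -0.62 (SE 0.15, adjusted p = 0.0138). *Ifi209* and *Ifi211*, DNA sensor genes of the HIN-200 family with similar sequences, had log2 fold changes of -0.54 (SE 0.13, adjusted p = 0.0151) and -0.41 (SE 0.12, adjusted p = 0.0468). *Ifi209* passed in 9 of the 11 fits that each left out 1 sample, failing without moKC 3 (-0.48, adjusted p = 0.0508) and moKC 5 (-0.47, adjusted p = 0.0661) and *Ifi211* in 4 of the 11 fits that each left out 1 sample (adjusted p up to 0.126). *Ifih1*, an RNA sensor gene chosen after its values were seen, had a log2 fold change of -0.25 (SE 0.07, adjusted p = 0.0416) and passed in 2 of the 11 fits that each left out 1 sample (adjusted p up to 0.142). Outside the list, *Slfn1*, a Schlafen gene, had 46.7, 20.4, 20.4, 16.9 and 28.6 CPM in moKCs 1 to 5 and 4.21 to 12.9 CPM in ResKCs. Its fitted log2 change was -1.61 (SE 0.28, adjusted p = 0.000438).

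Hox genes and their cofactors, transcription factors of body position and of blood stem cells, were mostly at or near 0: 12 of 43 passed the filter on low counts. *Hoxb5* and *Hoxb4* were higher in moKCs and *Meis1* was higher in ResKCs. The list median was -0.56, and -0.25 without moKC 1. DESeq2 and limma-voom each gave 2 higher in ResKCs and 3 higher in moKCs. In *Hoxb5*, the lowest, median and highest ResKC samples had 0.175, 1.63 and 2.48 CPM, and moKCs 1 to 5 had 8.20, 3.70, 3.22, 7.87 and 4.17 CPM. Every moKC sample had more *Hoxb5* than any ResKC sample, at low levels. The change on the log2 scale came to -1.81 (SE 0.44, adjusted p = 0.0169) in edgeR's quasi-likelihood test, and -1.64 (adjusted p = 0.0619) without moKC 4. *Hoxb4*, its neighbour, was chosen after its values were seen and had at most 0.828 CPM in a ResKC sample and at least 1.14 CPM in a moKC sample. Between the groups the log2 change was -1.91 (SE 0.41, adjusted p = 0.0053). *Meis1* stood at 5.87, 7.35 and 11.5 CPM in the lowest, median and highest ResKC samples and at 5.17, 4.27, 2.92, 4.53 and 3.51 CPM in moKCs 1 to 5. *Meis1* encodes a partner of Hox proteins, and its groups did not overlap. The fit gave a log2 fold change of 0.93 (SE 0.23, adjusted p = 0.0173), and it passed in 8 of the 11 fits that each left out 1 sample, failing without ResKC 2 (0.79, adjusted p = 0.0627), moKC 3 (0.83, adjusted p = 0.0572) and moKC 5 (0.88, adjusted p = 0.0577).

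The last genes with large changes in moKCs have separate roles, and none overlapped between the groups. In *Slc1a5*, the lowest, median and highest ResKC samples had 4.34, 6.90 and 11.3 CPM, and moKCs 1 to 5 had 13.8, 22.3, 17.9, 26.5 and 25.3 CPM. *Slc1a5* encodes a glutamine transporter, and its log2 fold change was -1.52 (SE 0.30, adjusted p = 0.00229) in edgeR's quasi-likelihood test. *Esr1* stood at 2.98, 3.62 and 6.40 CPM in the lowest, median and highest ResKC samples and at 16.3, 11.8, 6.82, 12.4 and 11.7 CPM in moKCs 1 to 5. *Esr1* encodes estrogen receptor alpha, with a log2 fold change of -1.53 (SE 0.27, adjusted p = 0.000539) in these male mice. The lowest, median and highest ResKC values of *Pbxip1* were 5.75, 7.74 and 14.03 CPM, beside 16.8, 24.7, 15.5, 40.5 and 30.8 CPM in moKCs 1 to 5. *Pbxip1* encodes a protein that binds PBX factors, and its log2 fold change was -1.62 (SE 0.29, adjusted p = 0.000739). *Bvht*, a long non-coding RNA, had 7.94, 8.97, 4.50, 8.91 and 7.90 CPM in moKCs and 1.84 to 3.94 CPM in ResKCs, with a log2 fold change of -1.54 (SE 0.25, adjusted p = 0.0002).

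In the lipid lists, most genes that passed were LXR targets and lipoprotein genes. Of the LXR targets and lipoprotein genes, which export cholesterol, 3 of 21 tested (22 listed) were higher in ResKCs and 1 in moKCs, with a median of 0.21. Without moKC 1 the counts in ResKCs and in moKCs were 1 and 1. In *Apoe*, the lowest, median and highest ResKC samples had 19240.0, 22890.0 and 29530.0 CPM, and moKCs 1 to 5 had 26680.0, 39590.0, 28930.0, 41200.0 and 34840.0 CPM. *Apoe*, whose product carries cholesterol out of cells, was the member higher in moKCs, with overlapping samples. On the log2 scale the change was -0.53 (SE 0.14, adjusted p = 0.033) in edgeR's quasi-likelihood test, and it passed in 5 of the 11 fits that each left out 1 sample (adjusted p up to 0.126). *Apoc1*, *Npc1* and *Soat1* were higher in ResKCs. *Apoc1* had 886, 552, 393, 315 and 504 CPM in moKCs 1 to 5, of which moKC 1 lay among the ResKC samples (707 to 1484 CPM). The log2 fold change of *Apoc1* was 1.08 (SE 0.25, adjusted p = 0.0134) in edgeR's quasi-likelihood test, and 1.34 (adjusted p = 0.00129) without moKC 1. *Apoc1* passed in 10 of the 11 fits that each left out 1 sample, failing without moKC 4 (0.94, adjusted p = 0.0599). *Soat1*, which encodes the enzyme that esterifies cholesterol, had a log2 fold change of 0.31 (SE 0.08, adjusted p = 0.0265), and that of *Npc1*, a lysosomal cholesterol transporter gene, was 0.46 (SE 0.13, adjusted p = 0.0399). They passed in 6 and 3 of the 11 fits that each left out 1 sample, and neither passed without moKC 1 (adjusted p = 0.0572 and 0.101). Of 29 genes of sterol and fatty acid synthesis, *Acly*, which makes cytosolic acetyl-CoA, was higher in ResKCs with 0.49 (SE 0.14, adjusted p = 0.049) and passed in 3 of the 11 fits that each left out 1 sample (adjusted p up to 0.177). None was higher in moKCs with edgeR, DESeq2, limma-voom or at an unadjusted p under 0.05, and the median was -0.14.

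No gene of lipid droplets and triglyceride turnover passed in edgeR's quasi-likelihood test (25 genes tested, 27 listed, median -0.05). Before adjustment, at p under 0.05, 1 and 0 counted as higher in ResKCs and in moKCs, and at an adjusted p the counts were 0 and 0 with DESeq2 and 0 and 0 with limma-voom. None of the 22 genes of lipid-associated macs, such as those for cathepsins and lipid sensing, passed either, with a median of -0.35. At an unadjusted p under 0.05, 3 and 4 counted as higher in ResKCs and in moKCs, and at an adjusted p the counts were 2 and 0 with DESeq2 and 2 and 0 with limma-voom. The fit without moKC 1 gave 0 in ResKCs and 1 in moKCs. Summed over this list, ResKCs had 25270.0 to 32970.0 CPM and moKCs had 18850.0, 27360.0, 27820.0, 24880.0 and 29070.0 CPM, with the cathepsin gene *Ctsb* the most abundant.

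**Figure D5:**
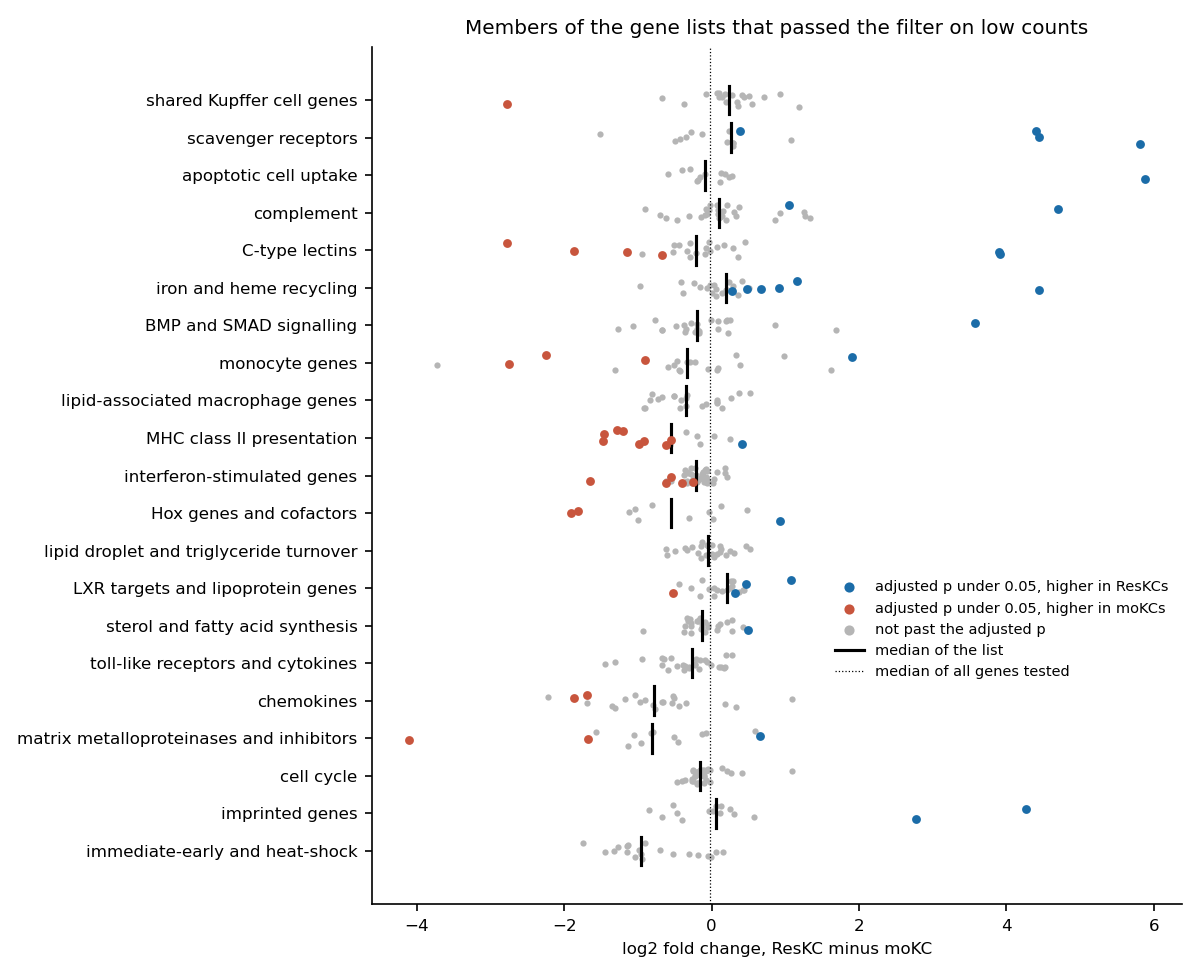
Points are the members of each gene list that passed the filter on low counts, by log2 fold change (ResKC minus moKC), coloured where the adjusted p was under 0.05. Black bars give the list medians and the dotted line the median of all genes (-0.02); 8 members of the MHC class II list are coloured as higher in moKCs and 6 members of the iron and heme list as higher in ResKCs.

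Chemokines draw leukocytes into tissue, and 2 of 22 tested genes (23 listed) were higher in moKCs while none was higher in ResKCs. DESeq2 gave 3 and limma-voom 1 in moKCs and both gave 0 in ResKCs, as did the unadjusted p under 0.05. The result depends on moKC 1, since without it 1 chemokine gene was higher in ResKCs and 0 in moKCs. The median was -0.78. In *Ccl3*, the lowest, median and highest ResKC samples had 15.04, 25.4 and 67.5 CPM, and moKCs 1 to 5 had 196, 36.9, 44.96, 184 and 64.7 CPM. *Ccl3* attracts monocytes and was highest in moKCs 1 and 4, with overlap between the groups. This amounted to a log2 fold change of -1.70 (SE 0.48, adjusted p = 0.0474) in edgeR's quasi-likelihood test, and -1.34 (adjusted p = 0.13) without moKC 1. It passed in 3 of the 11 fits that each left out 1 sample (adjusted p up to 0.169). *Ccl7* stood at 6.82, 9.11 and 13.8 CPM in the lowest, median and highest ResKC samples and at 95.9, 13.7, 12.3, 35.9 and 22.2 CPM in moKCs 1 to 5. *Ccl7*, a ligand of CCR2, was highest in moKC 1. The estimated log2 change was -1.87 (SE 0.49, adjusted p = 0.0287), and -1.09 (adjusted p = 0.201) without moKC 1. It passed in 5 of the 11 fits that each left out 1 sample (adjusted p up to 0.201). The moKC medians of *Ccl3* and *Ccl7* were 64.7 and 22.2 CPM. In ResKCs on the SD they were higher, at 117.5 and 30.2 CPM at 24 weeks and 97.4 and 24.99 CPM at 12 weeks. In ResKCs on the WD for 12 weeks they were 72.6 and 16.0 CPM. moKCs 1 and 4 also had the highest sums of the immediate-early genes, and the part of these in the chemokine values was not tested.

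No toll-like receptor or cytokine gene passed (28 genes tested, 29 listed, median -0.27, edgeR). Before adjustment, at p under 0.05, 1 and 5 counted as higher in ResKCs and in moKCs, and at an adjusted p the counts were 0 and 0 with DESeq2 and 0 and 0 with limma-voom. No cell cycle gene passed (36 genes tested, 37 listed, median -0.15, edgeR). At an unadjusted p under 0.05, 1 and 0 counted as higher in ResKCs and in moKCs, and at an adjusted p the counts were 0 and 0 with DESeq2 and 1 and 0 with limma-voom. Without moKC 1 the counts in ResKCs and in moKCs were 1 and 0.

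Among matrix metalloproteinases and their inhibitors, with 14 tested genes (15 listed), *Mmp9* and *Mmp2* were higher in moKCs and *Timp2* was higher in ResKCs, with a median of -0.81. The fit without moKC 1 gave 1 in ResKCs and 1 in moKCs. In *Mmp2*, the lowest, median and highest ResKC samples had 3.76, 6.30 and 9.71 CPM, and moKCs 1 to 5 had 5.88, 20.5, 18.5, 36.7 and 21.9 CPM. *Mmp2* encodes gelatinase A. moKC 1 lay among the ResKC samples, and the other moKC samples were above all of them. In log2 units the difference was -1.68 (SE 0.30, adjusted p = 0.000594) in edgeR's quasi-likelihood test. *Timp2* stood at 314, 424 and 469 CPM in the lowest, median and highest ResKC samples and at 301, 236, 246, 258 and 251.1 CPM in moKCs 1 to 5. *Timp2* encodes an inhibitor of these enzymes, and each ResKC sample was above each moKC sample. Fitted over all samples, the log2 change was 0.66 (SE 0.14, adjusted p = 0.00634). For *Mmp9* the ResKC samples had a lowest, median and highest value of 2.10, 6.70 and 9.47 CPM, beside 510.4, 15.8, 10.1, 20.7 and 14.2 CPM in moKCs 1 to 5. *Mmp9*, gelatinase B, did not overlap between the groups, but its call depends on moKC 1. The log2 fold change of -4.11 (SE 0.81, adjusted p = 0.00229) became -1.19 (adjusted p = 0.261) without moKC 1. It is also the only member of the neutrophil list that passed, and 0 members of that list passed with DESeq2 or limma-voom.

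In the lists of stellate cells, B cells and platelets, 4 of 14, 1 of 11 and 1 of 3 tested genes passed, beside 2.00% and 0.991% of all genes higher in ResKCs and in moKCs. Of 14 tested genes (15 listed) of stellate cells, *Dcn*, *Col3a1* and *Lum*, which encode matrix proteins, were higher in moKCs and *Ecm1* was higher in ResKCs, with a list median of -0.68. Without moKC 1, and without ResKC 4, 1 was higher in each group. The summed level was 325 to 474 CPM in ResKCs and 478, 380.1, 236, 397 and 313 CPM in moKCs 1 to 5, with *Ecm1* the most abundant. In *Dcn*, the lowest, median and highest ResKC samples had 17.6, 22.3 and 53.4 CPM, and moKCs 1 to 5 had 109, 78.4, 32.6, 83.97 and 67.8 CPM. The *Dcn* samples overlapped, with a log2 fold change of -1.34 (SE 0.37, adjusted p = 0.0413) in edgeR's quasi-likelihood test and -1.16 (adjusted p = 0.0906) without moKC 1. *Dcn* passed in 3 of the 11 fits that each left out 1 sample (adjusted p up to 0.109), and *Col3a1*, with -1.44 (SE 0.40, adjusted p = 0.0413), in 2 of the 11 fits that each left out 1 sample (adjusted p up to 0.109). *Lum* was chosen after its values were seen and had a log2 fold change of -1.73 (SE 0.43, adjusted p = 0.0176); without ResKC 2 it was -1.61 (adjusted p = 0.0512). *Ecm1* stood at 243, 305 and 327 CPM in the lowest, median and highest ResKC samples and at 218, 138, 103, 159.7 and 133 CPM in moKCs 1 to 5. *Ecm1*, which encodes a secreted matrix protein, did not overlap between the groups, and its log2 fold change was 0.96 (SE 0.21, adjusted p = 0.00719). The stellate markers *Lrat*, *Reln* and *Col1a1* had moKC medians of 12.9, 6.36 and 6.04 CPM. Their ResKC medians were 6.71, 3.99 and 1.08 CPM.

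Of 11 tested genes (12 listed) of B cells, *Cd79b*, a chain of the B cell receptor, was higher in moKCs, with a log2 fold change of -1.15 (SE 0.32, adjusted p = 0.0375) in edgeR's quasi-likelihood test, and it passed in 3 of the 11 fits that each left out 1 sample (adjusted p up to 0.142). None was higher in ResKCs with edgeR, DESeq2, limma-voom or at an unadjusted p under 0.05. In moKCs 1 was higher with DESeq2 and 0 with limma-voom. The median of *Cd79b* was 14.9 CPM in the compared ResKCs and 30.95 CPM in moKCs. ResKCs on the SD had medians of 32.4 CPM at 12 weeks and 29.7 CPM at 24 weeks. On the WD for 12 weeks the ResKC median was 27.0 CPM, so the moKC level was not particular to moKCs. The list summed to 118, 284, 55.4, 174 and 95.8 CPM in moKCs and to 28.9 to 96.7 CPM in ResKCs, led by *Ighm*, and the defining markers *Cd79a* and *Ms4a1* had moKC medians of 3.42 and 2.28 CPM. Of 3 tested genes (10 listed) of platelets, *Itga2b*, an integrin gene chosen after its values were seen, was higher in moKCs. *Itga2b* stood at 0, 0.0394 and 0.376 CPM in the lowest, median and highest ResKC samples and at 1.61, 1.21, 0.674, 0.477 and 2.27 CPM in moKCs 1 to 5. Its fitted log2 change was -3.21 (SE 0.75, adjusted p = 0.0129), and -3.87 (adjusted p = 0.0059) without ResKC 4, all at low levels. None was higher in ResKCs with edgeR, DESeq2, limma-voom or at an unadjusted p under 0.05. Higher in moKCs were 1 with DESeq2, 2 with limma-voom and 2 without ResKC 4. The platelet list summed to 51.97, 72.8, 62.3, 132 and 91.5 CPM in moKCs and to 16.8 to 101 CPM in ResKCs, led by *Pf4*.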

How the data were processed

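The authors deposited counts of single reads for each gene symbol. Reads were mapped to mm10 with HISAT2 2.2.0 and counted with featureCounts 2.0.0, and SAMtools 1.10 and FastQC 0.11.9 were used, per the submitters' processing notes. The annotation and strand setting are not given in the sources used here. Samples were grouped by their titles and descriptions. Genes over 1 CPM in at least 5 of 35 samples were kept (13421 of 54735). Counts were scaled with TMM, and 1 model of 6 group means was fitted to all 35 samples with edgeR 4.0.16 (R 4.3.3), whose quasi-likelihood test was adjusted after Benjamini and Hochberg over all genes. CPM values are TMM-scaled, and log2 CPM used a prior count of 2.

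Named genes are those of the sort gate, those the study names for these populations, the 12 largest changes in each direction among DEGs with at least 5 CPM and groups that do not overlap, and up to 4 members that passed in each of 32 lists. This gave 61 genes, besides markers of cell types; 23 more were chosen after their values were seen. Members and lists were chosen with earlier results of these data known. Alternatives were DESeq2 1.42.0, limma-voom (limma 3.58.1), a robust dispersion, dropping the filter, scaling by library size, a fit to the compared groups, the replicate block, the naming scheme as a covariate or each scheme alone, other limits, and leaving out each sample. A few genes that were tested and counted are not reported here by name. Promoters and positions are from RefSeq (GRCm38.p6). The tests were checked on simulated counts with known changes. These had the same dispersion for all genes and no library that stood apart, so the check does not cover such libraries.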

Additional observations from a re-analysis of the deposited data

Results flagged for a closer look

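A sample was taken as far from the others of its group where its gap to the nearest of them, divided by the range of the group (both on the log2 scale), exceeded Dixon's critical value. Over 190 groups examined (each named gene, each summed marker list and the summed immediate-early genes, in ResKCs and in moKCs), 24 values did so. Chance would give about 1 in 20 groups if the groups were independent and not chosen by their values. Here they share the same libraries, and many genes were named for their values in them. The 24 can therefore not be judged against that rate. Of the 24, 10 were in moKC 1 and 7 in ResKC 4. Values that lay low in ResKC 4 were 23.4 CPM of *C2*, 10.9 CPM of *Xlr*, 774 CPM of *C4b*, 5.57 CPM of *Snrpn*, 17.9 CPM of *Bmpr1a*, 1.28 CPM of *Mcts2* and 14.8 CPM of *Enpp2*. moKC 1 lay high with 1512 CPM of *C4b*, 510.4 CPM of *Mmp9*, 1549 CPM of *Atp1b3* and 584 CPM summed over the neutrophil genes. The same sample lay low with 20.4 CPM of *Pparg*, 26.98 CPM of *Clec4b1*, 27.8 CPM of *Npc1*, 10.8 CPM of *Cd79b*, 6.84 CPM of *Ccr1* and 4.97 CPM of *Gdf3*. The remaining values were spread over 5 samples. ResKC 1 was low with 2.10 CPM of *Mmp9*, ResKC 2 was high with 3723 CPM of *Adgre1*, and ResKC 5 was low with 4.65 CPM of *Ccr2* and 0.175 CPM of *Hoxb5*. moKC 3 was low with 4.50 CPM of *Bvht* and 1.42 CPM of *Lum*, and moKC 5 was high with 89.1 CPM of *Ifih1*.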

How the results depend on the processing

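Counts are given as DEGs higher in ResKCs, DEGs higher in moKCs, and genes at an adjusted p under 0.05 higher in ResKCs and in moKCs, which were 114, 72, 268 and 133. A block for the replicate number, over replicates 1 to 5 of both groups, gave 46, 30, 82 and 39. The same 10 samples without the block, an alternative chosen after seeing the data, gave 62, 37, 132 and 55. Same-numbered samples were related with r from -0.16 to 0.15 over genes, and 1 of 5 moKC samples related best to the ResKC sample of its own number, so the numbers are not taken as pairs. The first naming scheme alone gave 50, 34, 58 and 37 and the second 40, 5, 55 and 7; the blocked, unblocked and single-scheme fits hold fewer samples by construction. Limits of 1.5 and 0.01 gave 49 and 19 DEGs, being stricter by construction. The compared groups alone gave 47 DEGs higher in moKCs, and DESeq2 gave 215 genes at an adjusted p under 0.05 higher in moKCs; the cause was not tested. Leaving out each sample in turn gave 84 to 159, 42 to 90, 153 to 334 and 73 to 188. The counts stayed within 1.5 times with limma-voom, no filter, library size alone, robust dispersion and the naming scheme as a covariate.

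No named gene reversed under any alternative. Of the 84 named genes, 81 kept their side of the adjusted p with DESeq2, 70 with limma-voom, 72 without the filter, 63 in the compared groups alone, 45 with the block, 57 in the same 10 samples without it, 37 and 31 in the first and the second naming scheme alone, 84 with the scheme as a covariate, 74 without moKC 1 and 76 without ResKC 4. Among the fits that each left out 1 sample, the fit without moKC 4 ended the most calls, with 62 kept. With 5 moKC samples, genes near the limits change sides when 1 sample is left out. Values near 3 counts (0.198 to 0.255 CPM before scaling) rest on few reads. The gate fixes *Timd4*. Sort purity and moKCs from SD-fed mice were not analysed here.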

Other observations

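Genes of signalling outside the lists were also among the DEGs, and all genes named here were chosen after their values were seen. In *Ptgis*, the lowest, median and highest ResKC samples had 35.1, 49.3 and 62.9 CPM, and moKCs 1 to 5 had 31.2, 9.75, 20.8, 4.77 and 7.54 CPM. *Ptgis* encodes the synthase of prostacyclin, which widens vessels, and all ResKC samples were above all moKC samples. The change on the log2 scale came to 1.73 (SE 0.39, adjusted p = 0.00911) in edgeR's quasi-likelihood test. *Enpp2* stood at 14.8, 19.6 and 20.2 CPM in the lowest, median and highest ResKC samples and at 5.04, 4.91, 4.27, 6.84 and 5.78 CPM in moKCs 1 to 5. *Enpp2* encodes autotaxin, which makes lysophosphatidic acid, and its groups did not overlap, with a log2 fold change of 1.81 (SE 0.27, adjusted p = 5.39e-05). ResKC samples of *Kitl* had a lowest, median and highest value of 19.9, 24.1 and 26.97 CPM, beside 10.8, 12.2, 12.5, 7.87 and 12.7 CPM in moKCs 1 to 5. *Kitl*, the gene of stem cell factor, did not overlap either, with 1.06 (SE 0.24, adjusted p = 0.0112). The adrenergic receptor genes *Adra2c* and *Adra2b* had log2 fold changes of 3.65 (SE 0.57, adjusted p = 0.000216) and 1.69 (SE 0.44, adjusted p = 0.027). *Adra2b* passed in 5 of the 11 fits that each left out 1 sample (adjusted p up to 0.0914), and *Adra2c* was 4.47 (adjusted p = 4.34e-05) without moKC 1. In *Atp1b3*, the lowest, median and highest ResKC samples had 925, 1291 and 1673 CPM, and moKCs 1 to 5 had 1549, 349, 410.4, 374 and 427 CPM. In *Atp1b3*, a subunit gene of the sodium pump, moKC 1 lay among the ResKC samples. Between the groups the log2 change was 1.11 (SE 0.27, adjusted p = 0.017), and 1.78 (adjusted p = 5.73e-08) without moKC 1. It passed in 7 of the 11 fits that each left out 1 sample, failing without moKC 2 (0.96, adjusted p = 0.0714), moKC 3 (0.99, adjusted p = 0.0564), moKC 4 (0.97, adjusted p = 0.0698) and moKC 5 (1.00, adjusted p = 0.0658).

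In the other direction, *Gdf3* stood at 7.21, 15.9 and 51.03 CPM in the lowest, median and highest ResKC samples and at 4.97, 99.8, 97.04, 116 and 138 CPM in moKCs 1 to 5. *Gdf3* encodes a ligand of the TGF-beta family, and moKC 1 was below every ResKC sample while the other moKC samples were above all of them. The fit gave a log2 fold change of -2.04 (SE 0.50, adjusted p = 0.017) in edgeR's quasi-likelihood test, and it passed in 9 of the 11 fits that each left out 1 sample, failing without ResKC 1 (-1.88, adjusted p = 0.0523) and moKC 5 (-1.84, adjusted p = 0.0583). The lowest, median and highest ResKC values of *Ccr1* were 2.38, 6.31 and 21.6 CPM, beside 6.84, 37.02, 25.8, 41.8 and 41.05 CPM in moKCs 1 to 5. *Ccr1*, a receptor gene for CCL3 and CCL7, had overlapping groups, with -1.81 (SE 0.46, adjusted p = 0.0212), and passed in 5 of the 11 fits that each left out 1 sample (adjusted p up to 0.0687). In *Tmem119*, the lowest, median and highest ResKC samples had 0.153, 1.22 and 2.92 CPM, and moKCs 1 to 5 had 0.839, 9.54, 5.62, 19.3 and 9.15 CPM. *Tmem119*, known as a marker of microglia, was lowest in moKC 1 among the moKCs, with a log2 fold change of -2.62 (SE 0.57, adjusted p = 0.0062). Its median was 0.685 CPM in SD ResKCs at 24 weeks and 65.8 CPM in CLEC4F- macs.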
